A study of Rattus norvegicus with 9 samples.

Results

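The comparison sets late against early lesions of a rat white matter tract, the caudal cerebellar peduncle. Times are days post lesion (dpl), here 28 and 5: 3 arrays titled 28 dpl and 3 titled 5 dpl, 6 of the 9 arrays of the series. Every group, the 3 arrays at 14 dpl included, came from Sprague Dawley rats aged 12 weeks at lesioning, whose peduncles had received 0.1% ethidium bromide, and lesions were cut from frozen brains by laser capture. No unlesioned or untreated tissue is among these groups, so all differences are between lesion ages. The series' design text calls the 3 arrays of a time point biological replicates. Whether each stands for its own animal or for pooled animals is not stated in the labels. The p-values set a mean difference against the spread between arrays of the same time, estimated from all 9 arrays.

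The caudal cerebellar peduncle is a white matter tract that carries axons into the cerebellum. Ethidium bromide kills oligodendrocytes and astrocytes at the injection site and leaves most axons in place. Phagocytes then clear the myelin debris, oligodendrocyte progenitors move in, divide and mature, and new sheaths are made by oligodendrocytes and, where astrocytes are missing, also by Schwann cells. The series' title places retinoid X receptor gamma signalling in this repair, and the comparison asks which genes separate an early lesion from a late one.

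Values are the authors' normalized values on a log2 scale, 1 per probe and array, and a difference is the mean at 28 dpl minus the mean at 5 dpl with the standard error (SE) of a limma fit on all 9 arrays (n = 3 per time point). A gene was called at a Benjamini-Hochberg adjusted p under 0.05 over 10552 probes, and folds are 2 raised to that difference. The annotation named 7679 probes, which make 7574 genes. Probes near 7.31 lie at the estimated background, and genes under this level on the 3 arrays of either time are given with a fold of "at least".

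At 28 dpl 1568 genes were higher (20.7% of those tested) and 1968 were lower (26.0%), together 46.7%. These shares are the background against which each group of genes below is to be read. The median difference of all genes was -0.03. Among called genes the rises were the larger changes: 352 rose by over 1 on the log2 scale and 269 fell by as much, while 33 rose and 7 fell by over 3. Over all 10552 probes, 2135 were higher (20.2%) and 2542 lower (24.1%). The 3 arrays at 28 dpl lay wholly above the 3 at 5 dpl for 1843 genes (24.3%) and wholly below for 2404 (31.7%).

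**Figure D1:**
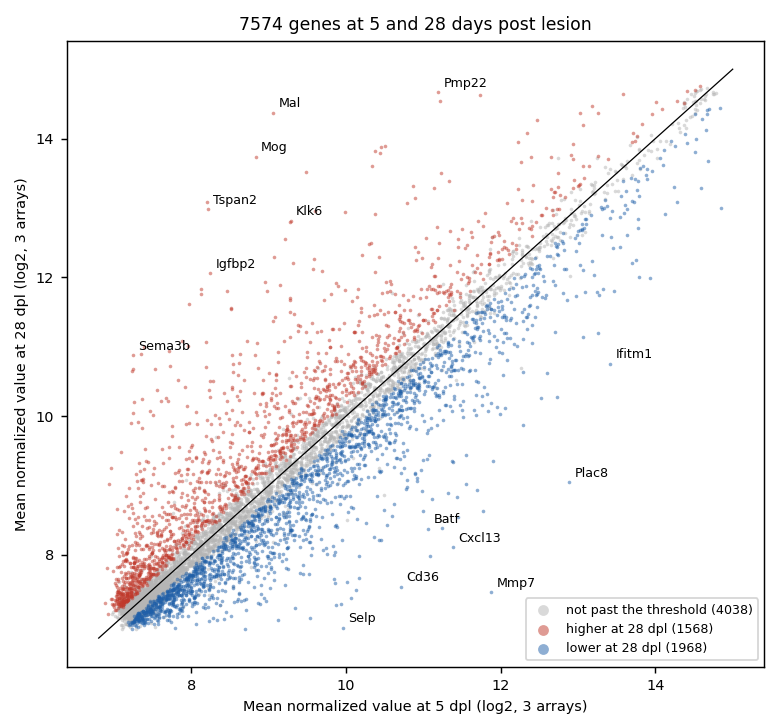
Each point is 1 of 7574 genes, with its mean normalized value (log2, 3 arrays) at 5 dpl on the horizontal axis and at 28 dpl on the vertical axis. The 1568 genes higher at 28 dpl lie above the diagonal, reaching 5.32 for Mal, and the 1968 lower genes lie below it, reaching -4.42 for Mmp7.

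The raw table of 22226 targets, which carries its own detection p-values, gave 1921 of 9404 tested targets higher (20.4%) and 2205 lower (23.4%). By detection alone, 231 targets were detected on all 3 arrays at 28 dpl and on 0 at 5 dpl, and 96 of these were already detected on all 3 arrays at 14 dpl. In the other direction 148 targets were detected on all 3 arrays at 5 dpl and on 0 at 28 dpl, of which 60 were detected on 0 at 14 dpl. The raw rows could not be tied to gene names. Median raw signals were 87.9 to 94.1 at 5 dpl and 86.5 to 91.4 at 28 dpl, with 8617 to 9003 and 8686 to 9191 targets detected per array.

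The 5 dpl arrays were less alike than the 28 dpl arrays. In 5 dpl replicate 1, 111 genes lay over 1 above both other 5 dpl arrays, against 1 and 25 for replicates 2 and 3, and the score of 27 neuron genes was 1.13 there against -0.38 and -0.21. (A score is the mean of a list's values on an array, each gene relative to its mean over the 9 arrays.) In 5 dpl replicate 3 the scores of cytokine genes (1.02) and blood genes (1.94) were the highest of the 3. The part of these arrays in a result is given beside it where leaving 1 out changed a call.

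Markers that define cell types were checked as summed levels, here as log2 of the sum over a type's measured defining markers. Oligodendrocyte markers (Mbp, Mog, Mag, Mobp, Cnp) lay at 13.09 to 13.67 on the 5 dpl arrays and at 15.41 to 15.57 at 28 dpl. Astrocyte markers (Gfap, Aqp4, Slc1a2, Gja1, Aldoc) went from 12.39 to 13.52 up to 15.38 to 15.47. Macrophage markers (Cd14, Mrc1, Adgre1) were at 12.88 to 13.06 and then 10.98 to 11.36, and microglia markers (P2ry12, Cx3cr1, Aif1) at 14.54 to 14.61 and then 13.96 to 14.19. These 4 types did not overlap between the time points. Neither did Egr2, the 1 Schwann cell marker measured, at 9.40 to 10.03 and then 11.40 to 11.84. Egr2 is also counted below among the immediate early transcription factors, and it was above background on all 5 dpl arrays. Lymphocyte markers (Cd3d, Cd3e, Lck), of which 0 were above background on all 6 arrays, were separate too, at 9.13 to 10.04 and then 8.74 to 8.83. Hbb, the 1 blood marker measured, overlapped, at 8.15 to 11.76 and 8.29 to 8.81. Endothelial markers (Cldn5, Flt1) overlapped, at 10.67 to 11.34 and 10.52 to 11.23. So did neuron markers (Nefl, Nefm, Snap25, Syt1, Stmn2), at 10.27 to 13.30 and 11.39 to 11.51. Above background on all 6 arrays were 4 of 5 oligodendrocyte, 3 of 5 astrocyte, 2 of 3 macrophage and 1 of 2 endothelial markers. Linear values were summed, so the brightest marker of a type weighs most. Gfap alone lay at 14.57 to 14.68 late. The microglia sums were close to Aif1 alone, at 14.47 to 14.55 early and 13.90 to 14.14 late. The endothelial sums were close to Cldn5 alone, at 10.51 to 11.25 and 10.35 to 11.13. Ttr, the defining marker of choroid plexus, was at 7.14 ± 0.17 early and 7.53 ± 0.47 late (SD, n = 3), near background on most arrays. In RNA of a whole lesion, more cells of a type and more RNA per cell cannot be told apart.

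Myelin genes were among the largest rises. Of 25 measured genes of myelin and mature oligodendrocytes 24 rose, by a median of 2.29. With limma 0 fell, also at an unadjusted p under 0.05, though Cdkn1c, a cell cycle inhibitor (difference -0.22), passed as lower without 28 dpl replicate 2. Mal, a proteolipid of myelin membranes, was 9.86, 8.64 and 8.66 at 5 dpl and 14.37, 14.17 and 14.59 at 28 dpl. Its lowest late array was thus far above its highest early array, and the difference of 5.32 (SE 0.32, adjusted p = 1e-05) is a 40.0-fold rise. Tspan2, a tetraspanin of oligodendrocytes, was 8.75, 7.81 and 8.07 and then 13.27, 12.63 and 13.06. Ermn, an actin-binding protein of late oligodendrocytes, was 8.64, 7.96 and 7.78 and then 11.83, 11.60 and 12.08. Both sets of arrays were clear of each other, with rises of 4.77 (SE 0.30) and 3.71 (SE 0.25). On the 14 dpl arrays Tspan2 averaged 11.94 and Ermn 9.68, so at 14 dpl Tspan2 stood nearer to its late level and Ermn nearer to its early one.

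Several genes among the 15 largest rises are not sheath proteins. Lpar1, a receptor for lysophosphatidic acid, was 10.02, 8.90 and 9.53 at 5 dpl and 13.76, 13.42 and 13.37 at 28 dpl, a 16.4-fold rise. Gpr37, a G protein-coupled receptor of oligodendrocytes, went from 7.71, 7.20 and 7.25 to 10.99, 10.83 and 11.17, a 12.2-fold rise. Klk6, a secreted serine protease, had the smallest p of the 15: 9.60, 9.24 and 9.01 became 12.80, 12.74 and 12.90, a difference of 3.53 (SE 0.13, adjusted p = 3.47e-06). In all 3 the late arrays lay above the early ones, as the choice of the 15 required. Ppp1r14a, an inhibitor of myosin phosphatase, rose 12.4-fold and Gsn, the actin-severing protein gelsolin, 4.88-fold. Car2, a carbonic anhydrase of oligodendrocytes, rose 9.39-fold and Mbp, myelin basic protein, 6.09-fold from means of 7.46 ± 0.06 to 10.07 ± 0.12 (SD, n = 3).

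**Figure D2:**
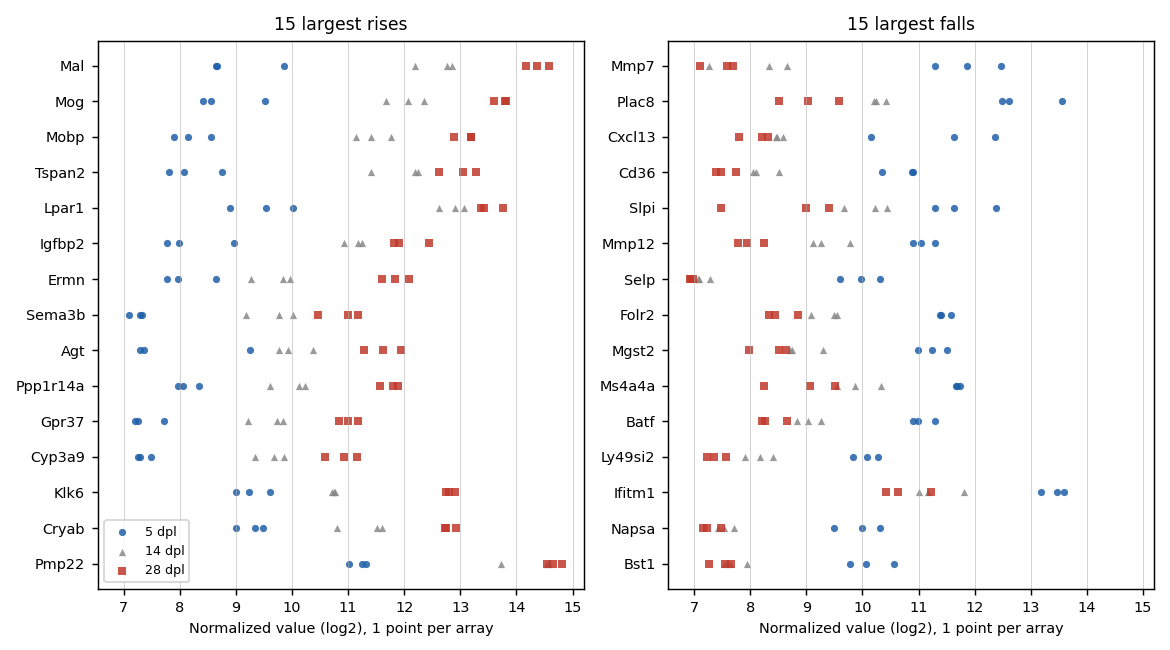
Normalized values (log2, horizontal axis) of the 15 genes with the largest rise and the 15 with the largest fall, 1 point per array at 5, 14 and 28 dpl. Separate 5 and 28 dpl arrays were a condition for the choice of these 30 genes. The 14 dpl arrays of Mal (mean 12.60) and Mmp7 (mean 8.08) lie nearer to those of 28 dpl.

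The promoter of Mal is shown because Mal had the largest rise and because the myelin genes moved together. It is the 250 bases before the start site in RefSeq's annotation of GRCr8, chr3:135341424-135341673 on the minus strand, 5′ to 3′, and capitals mark a match, on the opposite strand, to CTGGCAC or CTGGTAC, letters of the motif bound by Myrf, a transcription factor of myelin genes.
Mal: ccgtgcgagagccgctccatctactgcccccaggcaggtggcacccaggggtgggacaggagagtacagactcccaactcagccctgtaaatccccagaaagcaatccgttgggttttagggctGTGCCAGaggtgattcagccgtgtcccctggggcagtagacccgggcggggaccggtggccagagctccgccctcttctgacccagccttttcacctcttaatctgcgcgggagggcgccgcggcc
The match lies at -126 to -120 from the start site. Searched on both strands, these letters occurred in 5 of the 19 promoters found for the 25 myelin genes (26.3%) and in 5.39% of the 6275 promoters of measured genes. A match describes letters and is not evidence of binding.

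Genes of the oligodendrocyte lineage that are active before myelin is made moved less. Of 12 measured, 5 rose, 2 fell and 5 were not called, with a median difference of 0.33. Olig1, a transcription factor of the lineage, was 12.95, 13.06 and 12.80 at 5 dpl and 14.00, 13.81 and 13.95 at 28 dpl. Sox10, which drives myelin genes, was 10.77, 10.43 and 10.52 and then 12.21, 11.70 and 11.80. Both were higher on every late array, by 0.98 (SE 0.11, adjusted p = 0.000163) and 1.33 (SE 0.15, adjusted p = 0.000212). Lingo1, an inhibitor of oligodendrocyte maturation, also rose, by 0.70 (SE 0.14). Vcan, a chondroitin sulphate proteoglycan of progenitors and scar, fell from 11.34, 11.06 and 11.11 to 10.40, 10.45 and 10.07. The other gene that fell, Sox6 (difference -0.28), lost its call without 28 dpl replicate 2 (adjusted p = 0.0528, range over the alternatives 0.00679 to 0.0528). Pdgfra, the growth factor receptor that marks progenitors, was 8.32, 8.78 and 8.49 and then 9.06, 8.71 and 9.02, overlapping between the times, with a difference of 0.40 (SE 0.16, adjusted p = 0.0716). The adjusted p was 0.0371 when 5 dpl replicate 2 was left out, 0.0432 without the first 14 dpl array and 0.0437 without 28 dpl replicate 2. It was also under the threshold with cyclic loess (0.0424) and array weights (0.0436), within a range of 0.0371 to 0.193.

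Genes of the node of Ranvier and its matrix were split, with 5 of 12 higher, 2 lower and a median of 0.08. Hapln2, a link protein of nodal matrix, was 9.04, 8.33 and 8.25 at 5 dpl and 10.61, 10.97 and 10.66 at 28 dpl. Its mean at 14 dpl, 7.83, was below both, so the 4.61-fold rise came after that time. Gldn, gliomedin, which Schwann cells use to assemble nodes, was 7.14, 7.17 and 7.32 and then 10.08, 9.39 and 10.25, and its mean at 14 dpl was already 9.23. Omg, oligodendrocyte myelin glycoprotein, rose 3.93-fold and Cntn1, an axonal adhesion molecule of the paranode, 1.65-fold. Vcan fell here too. The second gene that fell, Tnr, tenascin-R, had overlapping arrays (difference -0.44) and lost its call when any of 5 arrays was left out (5 dpl replicates 1 and 3, 14 dpl replicate 3, 28 dpl replicates 2 and 3), with only the 5 and 28 dpl arrays, with the replicate block or with cyclic loess, which left 1 lower.

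Schwann cell genes rose in 7 of 9 cases, by a median of 2.69, and with limma 0 fell, also at an unadjusted p under 0.05. Dhh, the hedgehog ligand that Schwann cells secrete, was 7.55, 7.37 and 7.65 at 5 dpl and 10.92, 10.48 and 10.64 at 28 dpl. Egr2, the transcription factor of peripheral myelination, was 9.40, 9.72 and 10.03 and then 11.84, 11.40 and 11.79. Neither overlapped, and the rises were 8.90-fold (adjusted p = 1.55e-05) and 3.89-fold (adjusted p = 6.82e-05). Scn7a, a sodium channel of glia of peripheral nerve, was at background early, at 7.23 ± 0.08 (SD, n = 3), and at 10.65 ± 0.57 late. The means at 14 dpl of Dhh (10.42), Egr2 (11.18) and Scn7a (10.46) were close to those at 28 dpl. Cdh19, a cadherin of Schwann cell precursors, stayed near background, with a difference of 0.06 (SE 0.05, adjusted p = 0.326).

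Enzymes that make membrane lipid rose as well. In cholesterol synthesis 13 of 16 measured genes rose, 1 fell and the median was 0.85. Dhcr7, the enzyme of the last step to cholesterol, was 9.12, 9.10 and 9.14 at 5 dpl and 10.20, 10.07 and 10.08 at 28 dpl, a 1.99-fold rise with spreads of 0.02 and 0.07 (SD). Cyp51, lanosterol demethylase, rose 2.02-fold and Acat2, which condenses acetyl-CoA, 2.00-fold. Tm7sf2, a sterol reductase, was 7.55, 7.27 and 7.46 and then 8.69, 8.87 and 8.52, a 2.41-fold rise. Mvd, mevalonate decarboxylase, did not differ beyond the spread (0.05, 95% interval -0.15 to 0.24). Stard4, a cholesterol transfer protein, ran against the list: 7.59, 7.74 and 7.66 became 7.15, 7.21 and 7.19, at least 1.28-fold lower (adjusted p = 0.00022).

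Of 16 genes of fatty acid and sphingolipid synthesis 11 rose and with limma 0 fell, also at an unadjusted p under 0.05, with a median of 0.56. Ugt8, which makes galactosylceramide, the main glycolipid of myelin, was 10.90, 10.05 and 10.34 and then 13.97, 13.59 and 13.80. That 10.2-fold rise (adjusted p = 1.21e-05) was the largest of both lipid lists. Scd2, the desaturase of brain, rose 3.33-fold, whereas Scd, the form typical of liver and fat, differed by 0.03 (SE 0.11, adjusted p = 0.86). Smpd1, acid sphingomyelinase, rose 1.55-fold and Degs1, which completes ceramide, rose by 0.58 (log2).

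**Figure D3:**
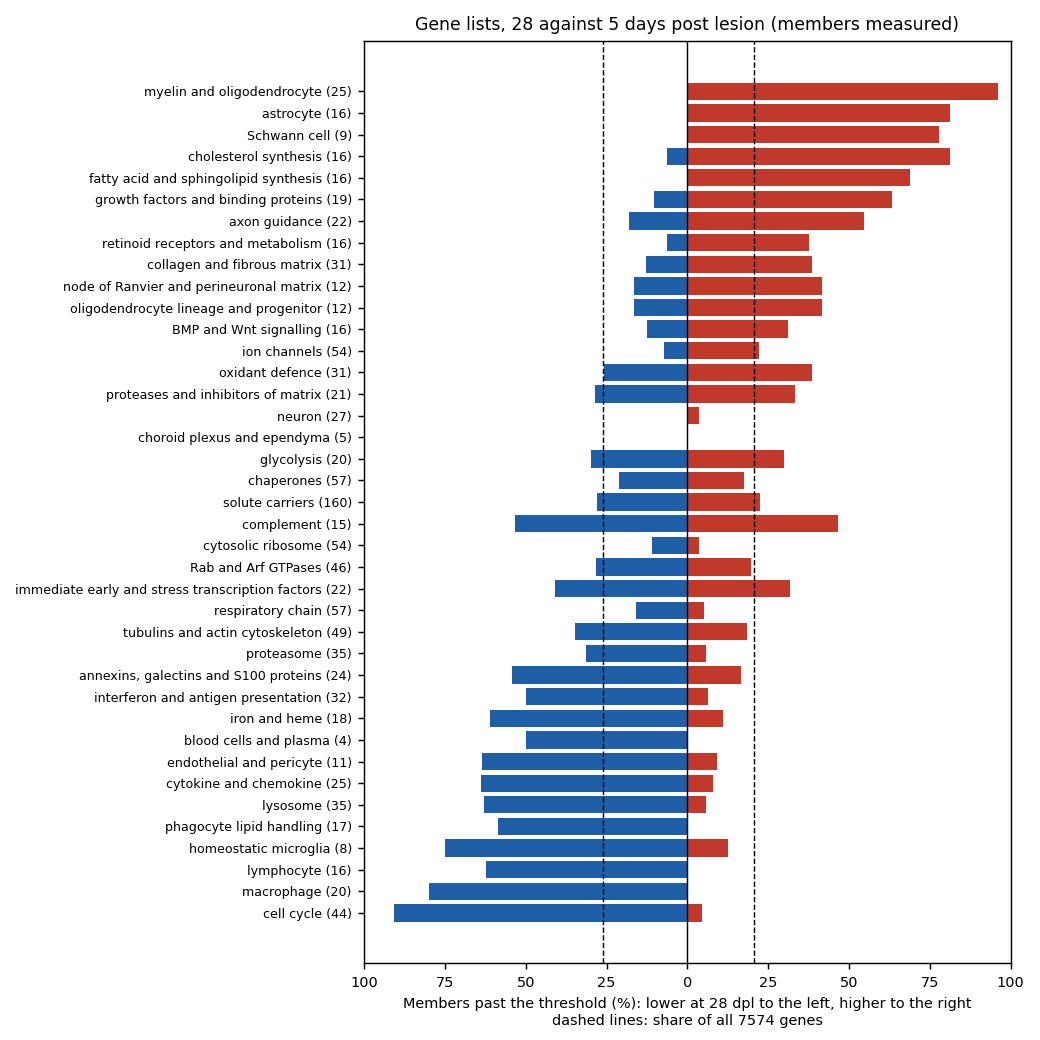
Share of the measured members of each of 39 gene lists (number in brackets) called lower (bars to the left) or higher (bars to the right) at 28 dpl, in percent, with dashed lines at 26.0% and 20.7%, the shares of all 7574 genes. Myelin genes extend furthest to the right (24 of 25) and cell cycle genes furthest to the left (40 of 44).

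Astrocyte genes rose in 13 of 16 cases, with a median of 1.06, and with limma 0 fell, also at an unadjusted p under 0.05. Gfap, the intermediate filament of astrocytes, was 12.05, 11.61 and 11.53 at 5 dpl and 14.57, 14.64 and 14.68 at 28 dpl, a 7.45-fold rise. Agt, angiotensinogen, which astrocytes secrete, was 9.26, 7.29 and 7.36 and then 11.29, 11.62 and 11.93, so that replicate 1 stood nearly 2 above the other early arrays. Its rise of 3.64 therefore had an SE of 0.47. The score of the list on that array, -0.33, was also above the -1.12 and -1.03 of the others. Without it Agt differed by 4.29 (adjusted p = 6.38e-06, range over the alternatives 6.38e-06 to 0.0025), and 14 of the 16 genes rose. Gja1, a gap junction channel, rose 5.47-fold and S100b 10.1-fold. Mlc1, a membrane protein of astrocyte endfeet, was below background on all early arrays and rose at least 1.62-fold. Slc1a3, a glutamate transporter, had overlapping arrays and differed by 0.12 (SE 0.18, adjusted p = 0.618).

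Secreted growth factors and their binding proteins rose in 12 of 19 cases, with 2 lower and a median of 0.47. Ptn, pleiotrophin, a heparin-binding factor, was 9.85, 9.58 and 9.31 at 5 dpl and 12.44, 12.23 and 12.13 at 28 dpl. Cntf, ciliary neurotrophic factor, which favours survival of oligodendrocytes, was 8.26, 8.19 and 8.26 and then 10.11, 10.18 and 10.55. Both were higher on every late array, 6.44-fold and 4.12-fold. Igfbp2, which binds insulin-like growth factors, rose 14.1-fold and Mdk, the relative of pleiotrophin, 2.12-fold. Igfbp4, below background on all arrays of both times, differed by -0.02 (SE 0.05). The members that fell were both vascular factors: Vegfb fell by 0.59 (log2), and Vegfa (at least 1.13-fold lower) lost its call without 28 dpl replicate 1 (adjusted p = 0.056, range 0.00906 to 0.056), which left 1 lower.

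In the BMP and Wnt list 5 of 16 rose and 2 fell, with a median of 0.09. Sostdc1, a secreted antagonist of BMP and Wnt, was 6.98, 6.98 and 7.76 at 5 dpl and 11.22, 9.73 and 11.11 at 28 dpl. Of its early arrays 1 was above background, and the early and late arrays did not overlap (difference 3.44, SE 0.47, adjusted p = 0.000517). Dkk3, of the Dickkopf family, rose 2.85-fold and Smad7, an intracellular inhibitor of TGF-beta and BMP signals, 1.35-fold. Frzb, a secreted Wnt antagonist, fell by 0.77 (SE 0.18). Bmp4 had overlapping arrays (difference -0.64) and was not called in fits that left out 5 dpl replicate 1, 5 dpl replicate 3 or 28 dpl replicate 3 (1 lower remaining in number). Leaving out 5 dpl replicate 2 or 28 dpl replicate 1 gave 3 higher.

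Axon guidance genes rose in 12 of 22 cases and fell in 4, with a median of 0.39. Sema3b, a secreted semaphorin, was near background early, at 7.33, 7.29 and 7.10, and reached 11.18, 10.47 and 11.00. It was the only guidance gene among the 15 largest rises. Sema7a, a membrane-anchored semaphorin, rose 2.48-fold and Ephb6, an Eph receptor below background at 5 dpl, at least 1.76-fold. In the other direction Nrp1, a receptor of semaphorins and of vascular growth factor, was 10.73, 11.09 and 11.41 and then 9.44, 9.48 and 9.41, a 3.10-fold fall that was not yet present at 14 dpl (mean 10.99). Sema4a, a semaphorin of immune cells, fell 1.90-fold and Plxnb2, a plexin receptor, 1.53-fold. Plxna2 was below background on all arrays of both times, so its difference (0.01, 95% interval -0.14 to 0.16) says little about expression.

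Among retinoid genes, 6 of 16 rose and 1 fell, with a median of 0.22. Rxrg, retinoid X receptor gamma, was 8.41, 7.92 and 8.22 at 5 dpl and 11.59, 10.68 and 10.93 at 28 dpl. The ranges were far apart, 7.37-fold by their means. A difference of Rxrb, another retinoid X receptor, was also called in the alternative limma fits (adjusted p range 0.000446 to 0.00374). That of Rxra was called in none of them (range 0.0648 to 0.263). Aldh1a1, which makes retinoic acid, was 8.86, 7.27 and 7.48 and then 11.09, 11.04 and 11.11, with 5 dpl replicate 1 again above the other early arrays. Nr4a2, an orphan nuclear receptor that pairs with retinoid X receptors, was below background early and rose at least 1.38-fold. Nr1h3, a liver X receptor and another partner, fell 2.68-fold, from 9.86, 10.38 and 10.03 to 8.37, 8.96 and 8.68. Rara differed by -0.03 (SE 0.09).

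The 15 largest falls ran from Mmp7 to Bst1, a surface enzyme of myeloid and stromal cells that fell 6.21-fold. Mmp7, matrilysin, a metalloproteinase, was 11.30, 11.87 and 12.46 at 5 dpl and 7.58, 7.10 and 7.69 at 28 dpl. Plac8, a cysteine-rich protein of myeloid cells, was 12.49, 12.61 and 13.56 and then 8.51, 9.59 and 9.04. Neither overlapped, as the choice of the 15 required, and the falls were 21.4-fold (adjusted p = 5.94e-05) and 14.3-fold (adjusted p = 4.2e-05). Selp, P-selectin, which captures leukocytes at the vessel wall, was 9.59, 9.97 and 10.31 and then below background on every late array, at least 6.26-fold lower. Its mean at 14 dpl, 7.14, was below background too. Slpi, a leukocyte protease inhibitor, fell 8.85-fold with a wide late spread, at 7.48, 9.41 and 9.00. Mmp12, macrophage elastase, fell 8.52-fold, Folr2, a folate receptor of macrophages, 7.49-fold, and Batf, a transcription factor of lymphocytes and dendritic cells, 6.44-fold.

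Of 20 macrophage genes 16 fell, by a list median of -1.08, and with limma 0 rose, also at an unadjusted p under 0.05. Adgre1, the F4/80 antigen, was 12.15, 12.37 and 12.35 at 5 dpl and 10.52, 10.80 and 10.57 at 28 dpl. Ms4a4a, a membrane protein of macrophages, was 11.69, 11.73 and 11.66 and then 9.06, 9.51 and 8.25, so the early arrays lay within 0.07 of each other and the late ones did not. Ccr2, the receptor of recruited monocytes, was at background throughout. Homeostatic microglia genes fell in 6 of 8 cases with a smaller median, -0.52. P2ry12, a purine receptor of resting microglia, was 9.44, 9.62 and 9.61 and then 8.57, 8.39 and 8.79, a 1.96-fold fall. Tyrobp, a signalling adaptor, fell 2.04-fold and Aif1 1.44-fold, whereas Trem2, the receptor that pairs with that adaptor, overlapped (difference -0.27, SE 0.14, adjusted p = 0.167). Olfml3 was the member that rose, by at least 1.23-fold, and it was not called without 28 dpl replicate 3 (adjusted p = 0.0534, range 0.00486 to 0.0534).

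Genes by which phagocytes take up and store lipid fell in 10 of 17 cases, with a median of -0.64, and with limma 0 rose, also at an unadjusted p under 0.05 (1 after cyclic loess). Plin2, the coat protein of lipid droplets, was 13.68, 14.02 and 14.10 at 5 dpl and 12.04, 12.13 and 11.81 at 28 dpl. Cd36, a scavenger receptor for oxidized lipid, was 10.34, 10.89 and 10.88 and then 7.48, 7.39 and 7.75. Both fell on every late array, 3.84-fold and 8.97-fold, and their means at 14 dpl, 12.29 and 8.22, were already near the late level. Scarb1, another lipoprotein receptor, fell 2.40-fold and Lipa, the lysosomal lipase that frees cholesterol, 1.93-fold. Lpl, lipoprotein lipase, varied from 10.03 to 11.44 among the early arrays and was not called (-0.26, SE 0.42).

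Lysosomal genes fell in 22 of 35 cases by small amounts, with a median of -0.36. Lgmn, the protease legumain, was 13.69, 13.75 and 13.83 and then 12.22, 12.48 and 12.05, a 2.83-fold fall. Gusb, beta-glucuronidase, fell 2.07-fold and Atp6v1a, a subunit of the proton pump, 1.87-fold. Lamp2, a protein of the lysosomal membrane, did not differ beyond the spread (0.02, 95% interval -0.22 to 0.27). The 2 that rose, Ctsb (0.27) and Mcoln1 (0.24), depended on single arrays. The count was 0 when 5 dpl replicate 3 or 28 dpl replicate 2 was left out, and 1 when 5 dpl replicate 2 or the first 28 dpl array was.

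Cytokine and chemokine genes fell in 16 of 25 cases, with a median of -0.89. Cxcl13, which attracts B cells, was 10.15, 11.64 and 12.36 at 5 dpl and 7.80, 8.22 and 8.31 at 28 dpl, with a wider early than late spread (SD 1.13 and 0.27). Ptgs2, inducible cyclooxygenase, was 10.22, 10.30 and 10.55 and then 8.31, 8.54 and 7.92. Il33, an alarmin released from nuclei of damaged cells, was 12.65, 12.68 and 12.21 and then 10.45, 10.24 and 10.08. None of the 3 overlapped, and Il33 fell 4.79-fold and Ptgs2 4.29-fold. Il1a fell 3.62-fold. The 2 that rose were the chemokines Cx3cl1, fractalkine, 1.74-fold, and Cxcl12, 2.25-fold. Cxcl12 lost its call when any of 5 arrays was left out (5 dpl replicates 1 and 2, 14 dpl replicate 2, 28 dpl replicates 2 and 3) or with array weights, which left 1 higher.

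Complement genes divided, with 7 of 15 higher, 8 lower and 0 not called. Among those that fell, C1qc, a chain of C1q, was 13.21, 13.41 and 13.14 at 5 dpl and 11.19, 11.74 and 10.68 at 28 dpl, and Cfp, properdin, was 11.01, 11.06 and 10.92 and then 8.78, 8.72 and 8.39. No array overlapped, and the falls were 4.15-fold and 5.15-fold. Inhibitors were among those that rose. Clu, clusterin, which blocks the terminal complex, was 11.10, 10.16 and 10.09 and then 13.63, 13.85 and 14.14, a 10.7-fold rise, and Cd59b, which acts at the same step on the cell surface, rose 2.56-fold. C4b, a component of the classical pathway, rose 2.68-fold, so the direction did not follow the split between components and inhibitors throughout. C1r (0.68) also rose but was not called with array weights (adjusted p = 0.0918, range 0.00418 to 0.0918) or in the fits that left out 5 dpl replicate 1, 5 dpl replicate 2, 28 dpl replicate 2 or 28 dpl replicate 3.

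**Figure D4:**
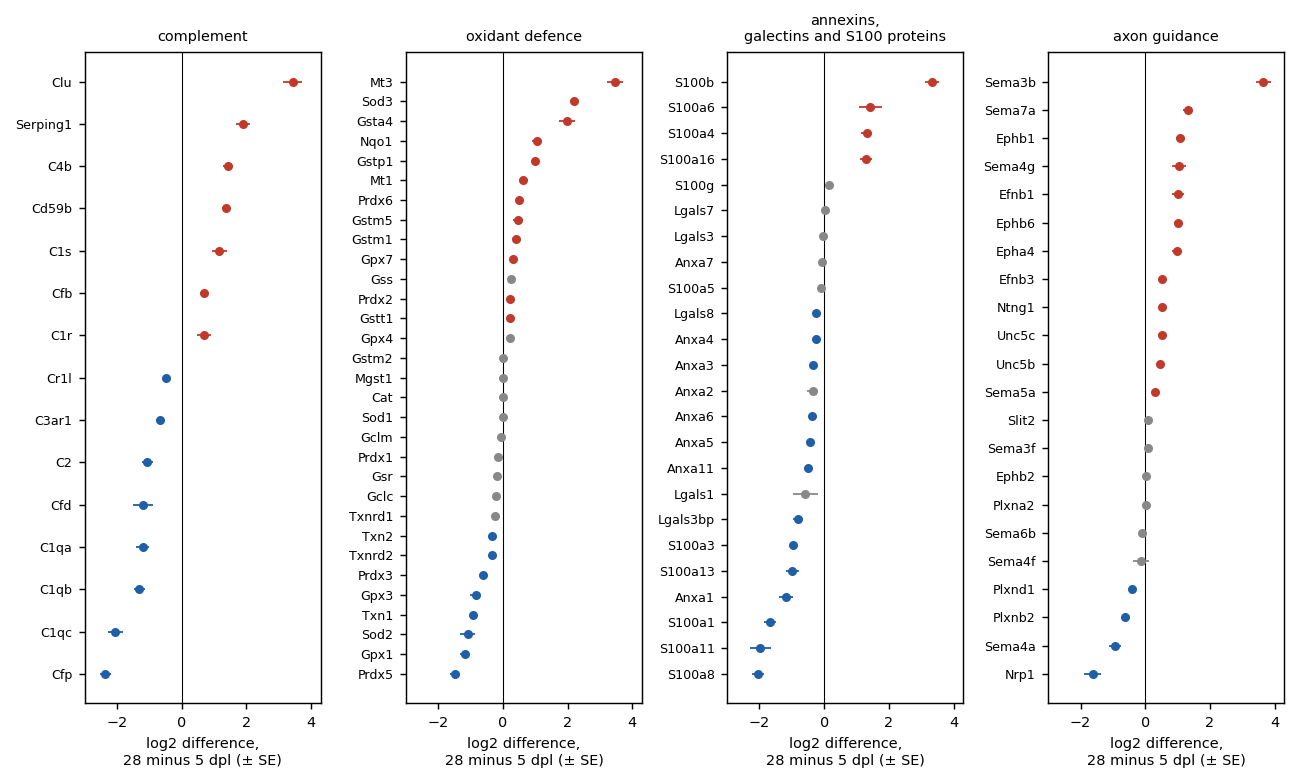
Log2 difference (28 minus 5 dpl, horizontal axis, bars are the SE of the limma fit) of each measured member of 4 lists that changed in both directions; red is called higher, blue called lower and grey not called. Clu, Mt3, S100b and Sema3b lead the rises, and Cfp, Prdx5, S100a8 and Nrp1 the falls.

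Interferon and antigen presentation genes fell in 16 of 32 cases, with 2 higher and a median of -0.53. Ifitm1, an interferon-induced membrane protein, was 13.18, 13.47 and 13.59 and then 10.42, 11.21 and 10.63, a 6.33-fold fall. Its relative Ifitm3 went the other way, from 10.13, 10.35 and 10.73 to 11.58, 11.31 and 11.51, a 2.09-fold rise. RT1-DMb, which loads peptide on class II molecules, fell 1.90-fold and Tapbp, which does so for class I, 1.71-fold. The count that fell was 10 without 28 dpl replicate 3. The other gene that rose, B2m (0.19), was not called without any single 5 or 28 dpl array or without 14 dpl replicate 2, nor with the replicate block, array weights or either background filter, which left 1 higher in each case. RT1-A2, a class I gene, was 7.02, 7.10 and 12.20 at 5 dpl and 9.44, 6.95 and 7.09 at 28 dpl. It was thus high on single arrays of both times and near background on the rest.

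Lymphocyte genes fell in 10 of 16 cases, with a median of -0.56, and with limma 0 rose, also at an unadjusted p under 0.05. Cd8a was 11.13, 11.33 and 12.20 at 5 dpl and 9.23, 10.16 and 8.93 at 28 dpl, and Cd8b, the other chain of the co-receptor of cytotoxic T cells, was 9.74, 9.87 and 10.40 and then 8.79, 9.09 and 8.65. Both were lower on every late array, 4.34-fold and 2.23-fold, and both were highest in 5 dpl replicate 3. Lck, a kinase of T cell receptor signalling, fell at least 1.32-fold. Cd4 was at background on most arrays and was not called (-0.10, SE 0.06). The count of falls was 6 when 14 dpl replicate 2 or the first 28 dpl array was left out or only the 5 and 28 dpl arrays were fitted, and 5 when 28 dpl replicate 3 was left out.

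**Figure D5:**
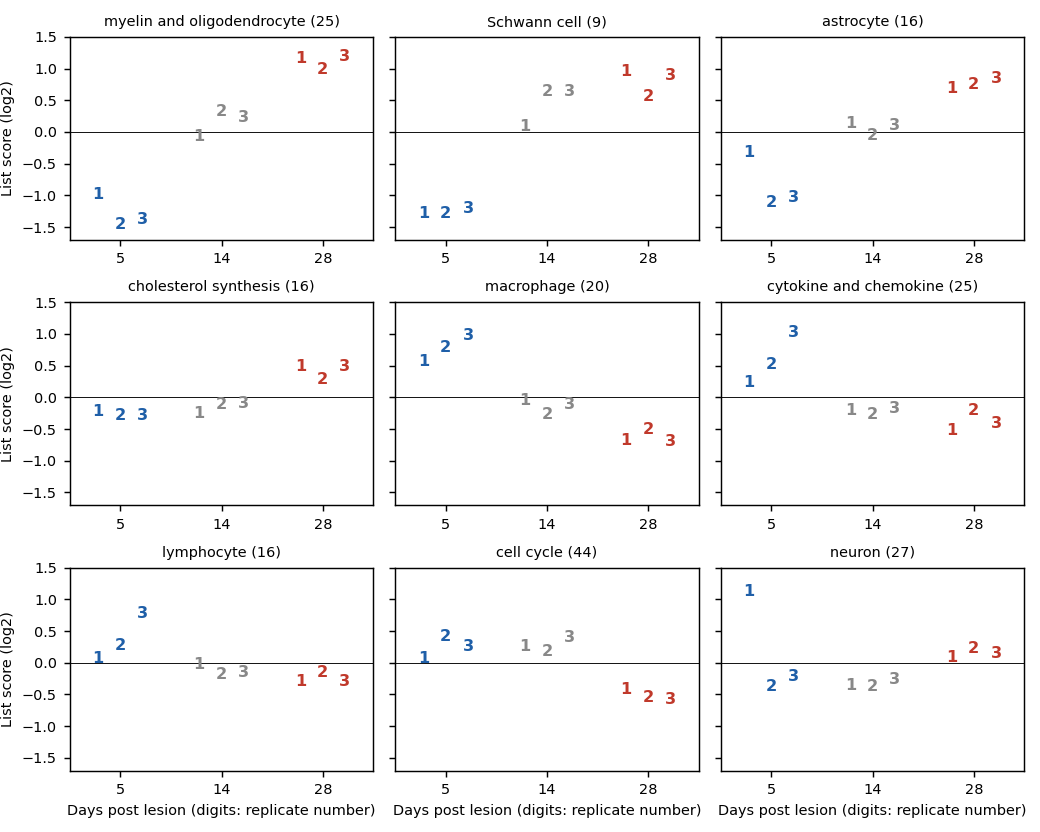
Scores (log2, vertical axis; mean over the list's genes relative to their mean over 9 arrays) of 9 gene lists at 5, 14 and 28 dpl (horizontal axis), each digit 1 array and its replicate number. The neuron score of 5 dpl replicate 1 (1.13) stands above all others of that list, and the cell cycle scores at 14 dpl lie near those at 5 dpl.

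Cell cycle genes were lower at 28 dpl in 40 of 44 cases, the highest share of any list that fell, with a median of -0.77. Cks2, a partner of mitotic kinases, was 10.40, 10.93 and 10.55 at 5 dpl and 8.84, 8.79 and 8.55 at 28 dpl. Mcm6, a subunit of the replicative helicase, was 10.52, 10.72 and 10.74 and then 9.51, 9.37 and 9.30. Both groups of arrays were separate, with falls of 3.72-fold (adjusted p = 3.2e-05) and 2.41-fold (adjusted p = 2.63e-05). Their means at 14 dpl, 10.38 and 10.32, were nearer to those at 5 dpl (10.62 and 10.66) than to those at 28 dpl (8.73 and 9.39). Bub1, a kinase of the spindle checkpoint, fell 2.41-fold and Cdk4 1.58-fold. The 2 members that rose were Stmn1, stathmin, which destabilizes microtubules (2.87-fold), and Ccnd1, cyclin D1 (1.44-fold). Mcm7, a helicase subunit like Mcm6, had overlapping arrays (-0.19, 95% interval -0.38 to 0.01).

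Promoters of Cks2 and Mcm6, from the cell cycle list, and of Tm7sf2, from the cholesterol list, are shown because both lists moved nearly as a block and in opposite directions. Capitals mark CCAAT, the box bound by NF-Y (ATTGG when it lies on the opposite strand), and in Cks2 also TTTGAA, the core of the element through which the DREAM complex holds cell cycle genes off (TTCAAA on the opposite strand). All lie on the minus strand of GRCr8, at chr17:13727520-13727769, chr13:42404353-42404602 and chr1:212789542-212789791, and run 5′ to 3′ to the base before the start site.
Cks2: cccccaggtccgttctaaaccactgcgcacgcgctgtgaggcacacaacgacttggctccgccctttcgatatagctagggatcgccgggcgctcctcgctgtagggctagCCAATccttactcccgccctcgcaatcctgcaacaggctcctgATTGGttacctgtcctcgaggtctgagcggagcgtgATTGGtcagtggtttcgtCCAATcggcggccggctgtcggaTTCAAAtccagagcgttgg
Mcm6: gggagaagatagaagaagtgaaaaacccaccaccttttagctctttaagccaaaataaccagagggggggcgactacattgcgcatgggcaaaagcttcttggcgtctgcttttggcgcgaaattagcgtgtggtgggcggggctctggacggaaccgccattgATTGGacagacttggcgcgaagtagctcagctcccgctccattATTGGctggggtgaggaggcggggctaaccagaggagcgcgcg
Tm7sf2: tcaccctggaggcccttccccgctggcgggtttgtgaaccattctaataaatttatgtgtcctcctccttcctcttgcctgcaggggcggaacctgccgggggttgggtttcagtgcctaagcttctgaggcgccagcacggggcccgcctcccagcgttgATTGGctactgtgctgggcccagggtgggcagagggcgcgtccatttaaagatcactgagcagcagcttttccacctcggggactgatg
CCAAT occurred on either strand in 23 of the 36 promoters found for the cell cycle list (63.9%) and in 9 of 12 of the cholesterol list (75%), against 35.7% of the 6275 promoters of measured genes. TTTGAA was in 12 of the 36 (33.3%), against 10.4%, and in 16% of all 27457 promoters of the annotation. It was about as frequent in the macrophage list, in 5 of 16 (31.2%), and the astrocyte list, in 4 of 15 (26.7%). TTCCCGC, a form of the E2F site and the only one searched, was in 3 of the 36 (8.33%), against 6.45%. TCACNCCAC, the sterol element bound by SREBP, was in 0 of the 12 cholesterol promoters, against 0.956%, and in 2 of 15 of the astrocyte list (13.3%). No match says only that these letters are not in these windows.

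Genes of iron and heme handling fell in 11 of 18 cases and rose in 2, with a median of -0.36. Blvra, biliverdin reductase, the step after heme oxygenase, was 11.92, 12.13 and 11.92 at 5 dpl and 9.77, 10.11 and 10.20 at 28 dpl. Hmox1, the inducible heme oxygenase, was 10.07, 10.06 and 9.80 and then 8.66, 9.08 and 8.71. Both fell on all arrays, 3.89-fold and 2.24-fold, while the constitutive form Hmox2 rose 1.30-fold. Hp, haptoglobin, which binds free haemoglobin, fell at least 2.29-fold. Tf, transferrin, which oligodendrocytes make, rose 2.53-fold, from 13.34, 12.79 and 12.95 to 14.28, 14.38 and 14.43. Haemoglobin itself, Hbb, was 10.12, 8.15 and 11.76 early and 8.81, 8.41 and 8.29 late, a difference of -1.51 (SE 0.72, adjusted p = 0.124) that passed without 5 dpl replicate 2 (adjusted p = 0.00365, range 0.00365 to 0.351). The part of blood in the heme genes was not tested.

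Oxidant defence split, with 12 of 31 higher, 8 lower and a median of -0.01. Leaving out 5 dpl replicate 2 or 28 dpl replicate 3 gave 7 higher. Mt3, the brain metallothionein, was 11.02, 10.30 and 9.80 at 5 dpl and 13.71, 13.79 and 13.98 at 28 dpl, a 10.9-fold rise. Sod3, the secreted superoxide dismutase, rose 4.62-fold and had reached 11.49 at 14 dpl. Prdx5, a peroxiredoxin, was 13.42, 13.88 and 13.79 and then 11.97, 12.41 and 12.24, a 2.81-fold fall. Gpx1, glutathione peroxidase, fell 2.28-fold, Txn1, thioredoxin, 1.92-fold, and Gstp1, a glutathione transferase, rose 2.00-fold.

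Calcium-binding S100 proteins, annexins and galectins fell in 13 of 24 cases and rose in 4, all of the latter S100 genes. S100a8, a subunit of calprotectin of neutrophils and monocytes, was 8.83, 8.93 and 9.60 and then below background, at least 3.50-fold lower. S100a4 rose 2.48-fold, from 10.14, 10.55 and 10.70 to 11.48, 11.92 and 11.92. Lgals3, galectin-3, which phagocytes of myelin debris carry, was 14.47, 14.61 and 14.70 and then 14.47, 14.75 and 14.49. It overlapped and its difference of -0.02 had a 95% interval of -0.24 to 0.19, while most macrophage genes fell.

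Vessel genes fell in 7 of 11 cases, with a median of -0.36. Anpep, an aminopeptidase of pericytes and myeloid cells, was 11.16, 11.45 and 11.49 at 5 dpl and 8.98, 9.80 and 9.26 at 28 dpl. Esam, an adhesion molecule of endothelial junctions, was 9.51, 9.47 and 9.46 and then 8.56, 7.98 and 8.14. Neither overlapped, with falls of 4.06-fold and 2.38-fold, and Tie1, an endothelial receptor, fell 2.01-fold. Mfsd2a, the lipid transporter of the blood-brain barrier, rose 1.73-fold, and 2 rose without 5 dpl replicate 1. Cldn5, the barrier's main claudin, was 11.25, 10.51 and 10.66 and then 11.13, 10.35 and 10.50, and did not differ beyond that spread (-0.14, 95% interval -0.75 to 0.46).

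Matrix genes rose in 12 of 31 cases and fell in 4, with a median of 0.27. Lamb2, a laminin chain of basement membranes, was 8.29, 8.25 and 8.21 and then 10.03, 9.69 and 9.92, a 3.09-fold rise. Col5a2, a fibrillar collagen, was 8.21, 8.29 and 8.87 and then 10.38, 9.76 and 10.50, while Col3a1, also fibrillar, overlapped (0.13, SE 0.38). Col18a1 rose 2.46-fold, and Col8a1, a short-chain collagen of vessels, fell 2.40-fold. Leaving out 5 dpl replicate 3 gave 2 that fell. Col15a1, a collagen of basement membrane zones, had an adjusted p of 0.0623 without that array and 0.0519 without 28 dpl replicate 3 (range 0.00692 to 0.0623). Of 21 matrix proteases and their inhibitors 7 rose (33.3%) and 6 fell (28.6%). Beside Mmp7 and Mmp12, Mmp8 of neutrophils fell at least 1.30-fold, whereas the serine proteases Htra1 and Plat, tissue plasminogen activator, rose 4.45-fold and 4.98-fold. Plat was 9.31, 8.69 and 9.18 and then 11.56, 10.98 and 11.58, and was at 11.21 at 14 dpl.

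Stress and immediate early transcription factors rose in 7 of 22 cases and fell in 9. Cebpb, a factor of inflammatory genes, was 11.58, 11.80 and 12.24 and then 10.05, 10.58 and 9.94, a 3.21-fold fall, and Ier3 fell 2.48-fold. Gadd45a, of the response to DNA damage, rose 1.91-fold and Stat3 1.29-fold, and Fos did not differ beyond the spread (0.02, 95% interval -0.18 to 0.22). Leaving out 5 dpl replicate 2 or the first 28 dpl array gave 5 that fell, and leaving out replicate 3 of either time gave 4. Of 57 chaperones 10 rose and 12 fell, close to the shares of all genes, and leaving out 5 dpl replicate 3 gave 7 that fell, leaving out 28 dpl replicate 3 gave 6. Among the rises were the heat shock genes Cryab (11.5-fold), Hspa2 (5.66-fold) and Hspb8 (2.56-fold). Cryab, alpha-B crystallin, was 9.49, 9.35 and 9.00 and then 12.75, 12.73 and 12.91.

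Of 57 respiratory chain genes 3 rose (5.26%) and 9 fell (15.8%), and 5 rose without 5 dpl replicate 1. Of 54 genes of the cytosolic ribosome 2 rose and 6 fell, with 4 higher when 5 dpl replicate 1, 5 dpl replicate 3 or 28 dpl replicate 2 was left out and 3 lower when the first 28 dpl array was. Sdhb, of succinate dehydrogenase, fell by 0.47 (SE 0.08) and Rpl31 by 0.62 (SE 0.08). Of 35 proteasome genes 2 rose and 11 fell, with Psma1 1.49-fold lower and Psmd7 1.40-fold higher. Glycolysis had 6 of 20 in each direction (30%, against 20.7% higher and 26.0% lower of all genes). Pgk1, phosphoglycerate kinase, was 12.49, 12.49 and 12.47 and then 11.63, 11.90 and 11.81, whereas Ldhb, a lactate dehydrogenase subunit, rose 2.47-fold and Pfkm, the muscle form of phosphofructokinase, 2.43-fold. Gapdh was 14.02, 13.99 and 13.92 and then 14.08, 14.06 and 13.78, with a difference of -0.00 (SE 0.09, adjusted p = 0.98).

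Transport and cytoskeleton genes were called in both directions. Of 160 solute carriers 36 rose (22.5%) and 45 fell (28.1%), close to the shares of all genes (20.7% and 26.0%). Slc20a2, a phosphate transporter, was 8.88, 8.46 and 8.54 and then 10.84, 11.04 and 10.83, a 4.83-fold rise, and Slc6a8, the creatine transporter, rose 3.82-fold. Slc25a1, which exports citrate from mitochondria for lipid synthesis, rose 2.14-fold. Of 46 Rab and Arf GTPases 9 rose (19.6%) and 13 fell (28.3%), also close to the shares of all genes. Rab33a was 3.61-fold and Arl2 2.70-fold higher, and Rab5c, of early endosomes, 1.61-fold lower. Of 49 tubulin and actin genes 9 rose and 17 fell (34.7%). Tpm1, a tropomyosin, was 9.48, 9.17 and 9.16 and then 11.70, 11.76 and 11.57, a 5.30-fold rise, and Arpc5, of the actin-branching Arp2/3 complex, fell 1.58-fold. Of 54 ion channels 12 rose (22.2%) and 4 fell (7.41%). Clcn2, a chloride channel of glia, rose 2.27-fold. Among channels of the TRPV family Trpv1 rose at least 1.44-fold, and Trpv2, which macrophages carry, fell 2.37-fold.

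Neuron genes gave the result that rested most on a single array. Of 27 measured, 1 rose and with limma 0 fell (2 and 0 at an unadjusted p under 0.05), and without 5 dpl replicate 1 it was 15 that rose. Leaving out 28 dpl replicate 1 gave 1 that fell. Nefl, the light neurofilament, was 10.82, 8.21 and 8.33 at 5 dpl and 9.74, 8.51 and 9.59 at 28 dpl, overlapping, with a difference of 0.16 (SE 0.64, adjusted p = 0.867). Without that array the difference was 1.01 (adjusted p = 0.0355, range 0.0355 to 0.998). Gad1, which makes GABA and is a marker of neuron cell bodies and not of axons in a tract, was 10.53 there against 8.26 and 8.39. Scg2, secretogranin, was the gene that rose, at 7.16 ± 0.17 and then 8.05 ± 0.04 (SD, n = 3). The gain of neuron genes in 5 dpl replicate 1 went with its astrocyte score, given above, and its part in other results was not tested beyond leaving the array out. Of 4 genes of blood cells and plasma, Pf4, a chemokine of platelets and macrophages, fell 5.35-fold and S100a8 fell as given above, and 4 fell without 5 dpl replicate 2, which adds the haemoglobins Hbb and Hba-a1. With limma 0 rose, also at an unadjusted p under 0.05, and of 5 genes of choroid plexus and ependyma 0 were called in either direction, at an unadjusted p under 0.05 too.

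Of the 4038 genes not called, 3506 had a 95% interval of the difference within 0.5 on the log2 scale in either direction. For these the arrays bounded a change of the normalized value. For the other genes not called a change of that size is not excluded. Genes at background, such as Ccr2 and Igfbp4, are among the 3506, and their narrow intervals do not bound a change in expression.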

How the data were processed

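The authors' deposited raw table has 2 columns an array, per the file headers: the signal intensity of a target (linear, not normalized) and its detection p-value. The authors' deposited normalized table holds log2 values of 10552 probes, quantile normalized as judged from its columns, which hold nearly the same set of values (median 8.31). Its software, its filter and the genome build are not stated by the labels or headers. Biotinylated cRNA was made with the Ambion TotalPrep kit, per the labels' protocols.

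The normalized values were fitted with lmFit and eBayes (limma 3.58.1, R 4.3.3) on all 9 arrays, with 1 mean per time point. The contrast was 28 minus 5 dpl, with Benjamini-Hochberg adjustment over 10552 probes and a threshold of 0.05. Of 103 genes with several probes the brightest was used; in 38 the probes' calls differed and in 3 they were opposite. The platform annotation named probes, and 7670 of its gene identifiers are in RefSeq (GRCr8). Background on the normalized scale, at most 7.31, was taken from the rank of undetected raw targets. For this the 10552 raw targets detected on at least 1 array were assumed to be the normalized probes, since their number is the same. The "at least" folds rest on this and are against the higher of the background and the gene's own value. A compressed low end of the scale understates differences of dim genes. Raw intensities were processed with neqc (offset 16) and the same fit, keeping targets detected (p under 0.01) on 3 or more arrays. The 2 tables share 0 identifiers, so raw rows have no gene names and raw columns no replicate number. The background that neqc estimated, a mean of 101 to 129 with an SD of 361 to 482, is above the median signal and doubtful. Columns of per-sample values left unused numbered 0.

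Named genes are first the 15 highest and 15 lowest differences among called genes whose 5 and 28 dpl arrays did not overlap and whose brighter mean exceeded background. They are also, for each of 39 lists, the 4 smallest and 1 largest p and up to 3 members against the list's direction, and a set of markers. The members and lists were chosen with earlier results of these data known, and 9 names caught by list patterns but of other function were left out. The 14 dpl arrays share the spread estimate and are given as means for orientation, untested. Replicate numbers did not pair the arrays: deviations of same-numbered 5 and 28 dpl arrays correlated at 0.04, 0.04 and -0.12 over genes. On simulated data for this contrast (10552 probes), 96% of 100 probes changed by 1 (log2) were called, 75% of 100 changed by 0.5, and 12 of 10352 unchanged ones. Far fewer probes were changed there than were called in the data (44.3%), and the noise was independent, with 1 spread per probe. These rates need not hold for the data. Promoters were the 250 bases before the first RefSeq start site, found for 6275 of 7574 genes. The alternatives tried were other arrays in the fit, each array left out, a replicate block, other normalizations, background filters, an intensity trend and array weights.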

Additional observations from a re-analysis of the deposited data

How the results depend on the processing

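The normalized probes, 2135 higher and 2542 lower, kept counts within 1.5 times of these under all 16 alternatives. Leaving out 1 array gave 1800 to 2248 higher and 2042 to 2681 lower, and fitting only the 5 and 28 dpl arrays 1932 and 2256. With the replicate number as a block, which does not pair the arrays, there were 1972 and 2305. Cyclic loess turned the larger side, with 2396 higher and 2294 lower. The raw targets, 1921 higher and 2205 lower, moved to 1167 and 1338 when each array was scaled to its 75th percentile in place of quantile normalization; the cause was not tested. Leaving out 1 raw array gave 1505 to 1934 and 1625 to 2235. Of 3908 values of named genes under alternatives 3846 stayed on their side of the threshold (those called at both settings in the same direction, while some not called at either changed sign), 49 lost a call, 12 gained one, and 1 turned with a call: Slc15a4, a transporter with a difference of 0.01 (adjusted p = 0.973), was at 0.22 without 5 dpl replicate 1 and at -0.28 without 5 dpl replicate 2 (adjusted p = 0.0279, range 0.0279 to 0.997). Of 1248 list counts 86 moved by over 1.5 times, some because fewer members are tested when a gene must exceed background on all 9 arrays. A slide block was not run, since the headers name no slides. Near background, differences are compressed and only bounds can be given.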
